A study of Sus scrofa with 8 samples.

Results

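The 38 genes described here carry annotation terms linked to the ubiquitin and proteasome system. This system is the main route by which cells mark and break down single proteins. The genes were chosen by words in the annotation of the array (ubiquitin, proteasome, F-box, kelch, ring finger, tripartite motif, and ankyrin repeat and SOCS box). Such a word does not show that a gene acts in this route. Descriptions of receptors, kinases and zinc fingers were left out. The annotation came from the authors' deposited comparison, which lists 2331 of the 25470 transcript clusters of the array, namely those that differed by 2-fold or more between infarcted and remote tissue at an unadjusted p under 0.05. The words matched 39 of the 1533 listed clusters with a symbol, and UBD, the gene with a pair of clusters, was represented by the brighter one. The difference between regions therefore helped to choose every gene, and it is given below as a description and not as a test. Genes just outside the limit carry no name in the list and were not analysed here.

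Myocardial RNA was measured in 4 young female Large White pigs, in 8 samples. All of them had the left anterior descending coronary artery closed by a balloon for 90 min. All received amiodarone, acetylsalicylic acid and antibiotics, and were included by infarct size and ejection fraction in magnetic resonance imaging. The 4 infarcted samples came from the anterior left ventricular wall and the 4 remote samples from the posterior wall of the same hearts, so the remote tissue is not that of an unoperated heart. Tissue was collected on day 7 by the design text of the series, while the methods give a later day. Values are log2 signals of GeneChip porcine gene arrays, on which a difference of 1 is a 2-fold change. All differences are infarcted minus remote. Standard errors come from a linear model with region as the only factor, which ignores the pairing of samples by pig. An SD over pigs is that of the differences within pigs, so it is not on the same footing as a standard error.

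In the ubiquitin system an activating enzyme (E1) passes ubiquitin to a conjugating enzyme (E2), and a ligase (E3) chooses the protein that receives it. Many ligases are built on a cullin scaffold, to which F-box, kelch and SOCS box proteins bring the substrate. Deubiquitinases take ubiquitin off again, and the proteasome degrades the marked proteins. In striated muscle, ligases of the F-box, kelch, ASB and TRIM families control the turnover of sarcomere proteins, and some of them are known from muscle wasting.

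Of the 38 genes, 27 were lower and 11 were higher on average in infarcted tissue, that is 71.1% lower, against 55.7% of all 1533 listed clusters with a symbol and 47.5% of all clusters on the array. The median difference was −1.69 over the lower genes, 1.13 over the higher genes and −1.30 over all 38, beside 0.02 over all clusters. By limma, with adjustment over all clusters, 19 of the 27 lower genes and 3 of the 11 higher genes passed an adjusted p under 0.05. The background was 3.42% of all clusters for lower and 2.47% for higher, and since the list had been filtered on the same contrast nothing follows from these counts about the family. With the pig as a replicate block 25 lower and 10 higher genes passed (background 5.66% and 4.57%). Without both arrays of pig 4 the numbers were 26 and 9 (background 7.48% and 6.89%). All 5 ASB genes, all 3 ring finger genes and all 4 proteasome genes were lower, while 6 of the 9 genes described by other ubiquitin terms were higher.

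**Figure D1:**
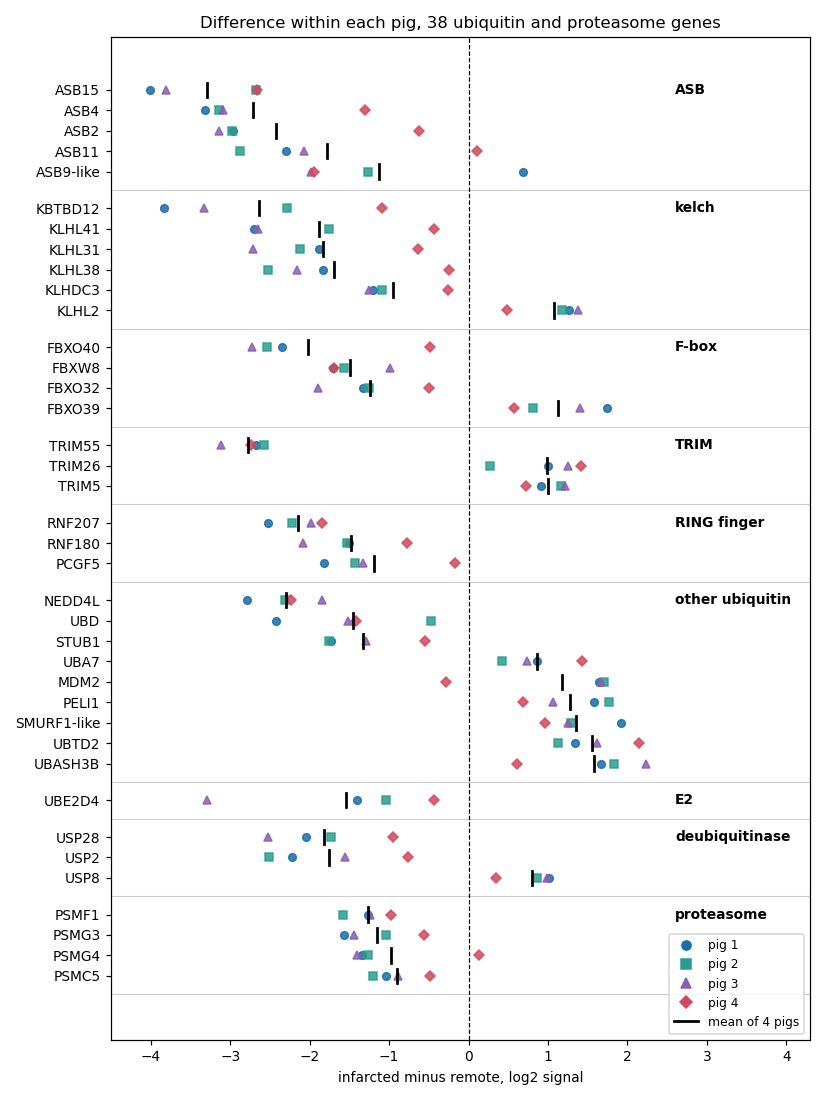
Difference between infarcted and remote tissue (x axis, log2 signal) within each of 4 pigs (coloured symbols) for the 38 genes (y axis), grouped by family, with the mean of the 4 pigs as a black bar. ASB15 lies farthest to the left with a mean of −3.29, UBASH3B farthest to the right with 1.59, and the symbols of pig 4 lie nearest to 0 or beyond it in most rows on the left.

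The ASB proteins carry ankyrin repeats, which bind the substrate, and a SOCS box, which docks on a cullin. ASB15 was lower in infarcted tissue by the widest margin of the 38 genes and stood at place 24 among the falls of all 25470 clusters. Its remote signals were 7.52, 7.94, 7.30 and 7.24 in pigs 1 to 4, and its infarcted signals were 3.51, 5.27, 3.49 and 4.58. The regions did not overlap, and pigs 1 and 3 had the lowest infarcted signals. The mean went from 7.5 ± 0.32 to 4.21 ± 0.87 (SD, n = 4 pigs), a log2 difference of −3.29 (standard error 0.39) and a 9.76-fold lower signal.

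ASB4, a family member known from blood vessel development, had remote signals of 6.08, 6.45, 5.84 and 4.37 and infarcted signals of 2.76, 3.31, 2.75 and 3.07 in pigs 1 to 4. The 4 infarcted samples lay close together, and most of the spread came from the low remote sample of pig 4. Its log2 difference was −2.71 (standard error 0.40), or 6.55-fold. ASB2 brings filamins to degradation. In remote tissue its signals were 6.16, 6.18, 4.89 and 4.88, and its infarcted signals were 3.19, 3.20, 1.75 and 4.25. The difference of −2.43 (standard error 0.50) held in every pig, from −3.14 in pig 3 to −0.63 in pig 4. The array lists a further unnamed locus for this cluster.

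ASB11 takes part in Notch signalling in zebrafish. Its differences were −2.30, −2.88 and −2.07 in pigs 1 to 3 and 0.11 in pig 4, where the remote signal (2.65) was already as low as the infarcted signals of the other pigs (2.21 to 2.67). It had the widest spread of the difference between pigs of all 38 genes (SD 1.31). The fifth cluster of this family, LOC102165983, is described as ASB9-like and shares its annotation with ANKRD52. It was higher in infarcted tissue in pig 1 (0.69) and lower in the other pigs (−1.98 to −1.27), so its mean difference of −1.13 (standard error 0.47) was smaller than the SD over pigs of 1.26.

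Among the kelch proteins, many of which bring substrates to a cullin, 5 of 6 were lower. The KBTBD12 signal was 6.19, 6.64, 5.72 and 4.88 in remote tissue and 2.36, 4.35, 2.39 and 3.79 in infarcted tissue. No infarcted sample reached a remote one, and the highest infarcted signal came from pig 2 and the lowest remote signal from pig 4. The mean difference was −2.64 (standard error 0.50), with −3.83 in pig 1 at one end and −1.09 in pig 4 at the other. The infarcted signals of pigs 1 and 3 (2.36 and 2.39) lay under the median of every array (2.96 to 3.22). The sizes of their differences, and so of the mean, are not exact. KLHL41, which stabilises nebulin in the thin filament, had a difference of −1.89 (standard error 0.41), KLHL31, whose loss in mice damages skeletal muscle, one of −1.84 (0.39) and KLHL38 one of −1.69 (0.35). In pig 4 these 3 differences were only −0.44, −0.64 and −0.24. The KLHL41 cluster also lists BBS5. KLHDC3, which recognises the ends of certain proteins, was lower by a smaller margin (−0.95, standard error 0.27). KLHL2, a kelch protein that binds actin and takes WNK kinases to degradation, differed the other way in every pig, by 0.49 to 1.38.

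F-box proteins are the substrate arms of the SCF ligases. FBXO40, a muscle F-box protein known to act on insulin signalling, had remote signals of 5.32, 5.82, 5.27 and 4.54 and infarcted signals of 2.97, 3.28, 2.55 and 4.06. The difference was −2.35, −2.54 and −2.72 in pigs 1 to 3 and −0.48 in pig 4, with a mean of −2.02 (standard error 0.36). FBXO32 encodes atrogin-1, a ligase that rises in many forms of muscle wasting. The remote signals of FBXO32 were 7.31, 7.84, 7.26 and 7.24, and its infarcted signals were 5.98, 6.59, 5.36 and 6.74. It was thus lower in infarcted tissue in each pig, by 0.50 to 1.90, and 2.37-fold on average (log2 difference −1.25, standard error 0.31).

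FBXO32 and KLHL38 lie next to each other on chromosome 4 of the pig, with 0 protein-coding genes between them in the RefSeq gene order of Sscrofa11.1. No other pair of the 38 genes was found within 5 genes of each other among the genes that could be placed. The pair did not move by the same amount. KLHL38 was lower by 1.83, 2.53 and 2.16 in pigs 1 to 3, where FBXO32 was lower by 1.33, 1.25 and 1.90, and in pig 4 the differences were −0.24 and −0.50. The infarcted mean of KLHL38 was 2.16, under the median of every array (2.96 to 3.22).

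FBXW8, which works with CUL7, was lower in all pigs by a similar amount (−0.99 to −1.71, mean −1.49, standard error 0.25). FBXO39 was the higher F-box gene, with remote signals of 2.78, 3.64, 2.26 and 3.53 and infarcted signals of 4.52, 4.45, 3.66 and 4.10. The regions came close without overlap, between 3.64 and 3.66, and the mean difference was 1.13 (standard error 0.34). Its cluster also lists an unnamed reading frame of chromosome 12.

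Many TRIM and ring finger proteins are ligases that bind the E2 directly. TRIM55, also called MuRF2, sits at the sarcomere and binds titin. The remote signals of TRIM55 were 6.33, 6.61, 5.72 and 6.58 and its infarcted signals 3.66, 4.04, 2.61 and 3.84. Pig 3 was the lowest in both regions, and the difference was much the same in every pig (−2.67, −2.57, −3.11 and −2.74). The mean of −2.77 (standard error 0.33) corresponds to 6.83-fold, and its SD over pigs of 0.24 is among the smallest of the 38 genes. TRIM26 and the cluster described as TRIM5 (LOC733579), a factor that blocks retroviral capsids, were higher in all 4 pigs, by 0.98 (standard error 0.27) and 1.01 (0.32). TRIM26 was higher by only 0.27 in pig 2. The TRIM5 cluster also lists a TRIM5-like locus, so its signal cannot be given to a single gene.

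RNF207 is a ligase of heart muscle known for its part in the level of the potassium channel of repolarisation. In remote tissue it had signals of 4.83, 4.72, 4.69 and 5.23 and in infarcted tissue of 2.31, 2.50, 2.71 and 3.38. Pig 4 was the highest in both regions, and the difference of −1.85 there was close to the others (−1.98 to −2.52). The mean difference was −2.14 (standard error 0.27), with an infarcted mean of 2.73 under the median of every array, so the size of this difference is not exact. The same holds for ASB11 (infarcted mean 2.48), FBXW8 (2.77), RNF180 (2.84) and KLHL38. The infarcted means of ASB4 (2.97), NEDD4L (3.08), ASB2 (3.10) and FBXO40 (3.215) lay within the range of the array medians (2.96 to 3.22). So did the remote means of FBXO39 (3.05) and the TRIM5 cluster (3.14), and the sizes of these differences may not be exact either. RNF180, which removes monoamine oxidase A in mice, and PCGF5, a subunit of the Polycomb complex that ubiquitinates histone H2A, had differences of −1.48 (standard error 0.45) and −1.19 (0.32), and for each of them the regions overlapped.

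**Figure D2:**
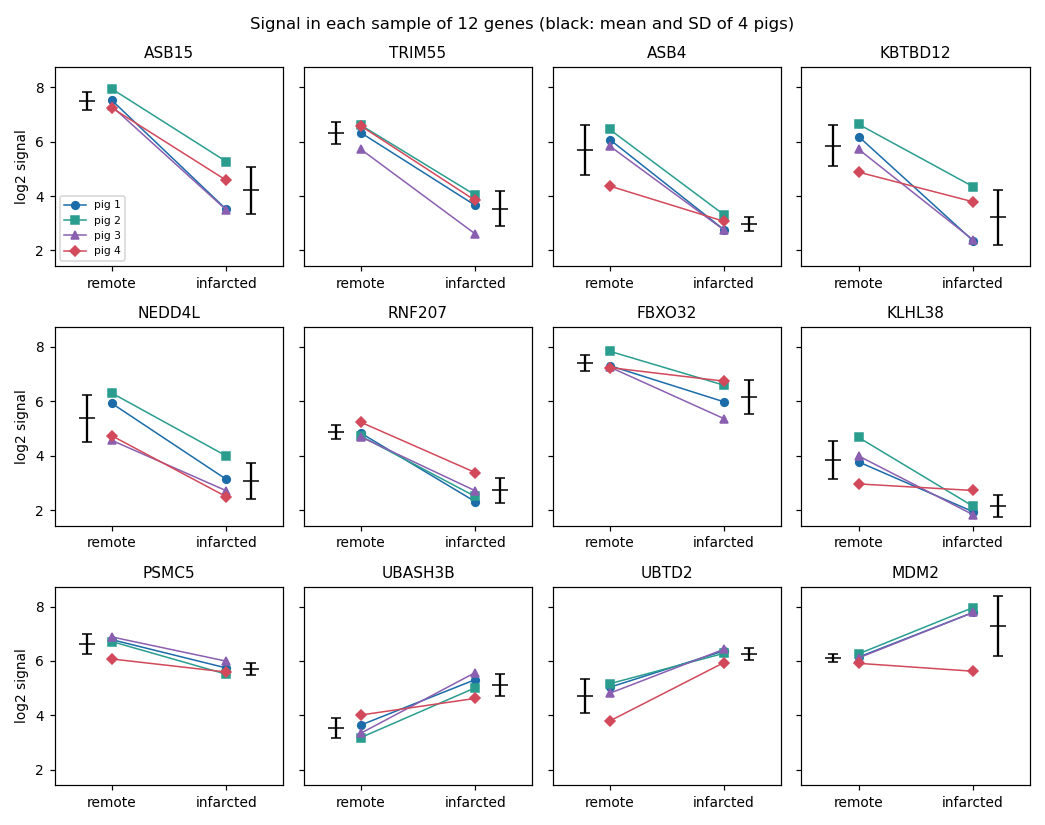
Log2 signal (y axis) of 12 of the genes in each remote and infarcted sample, with a line for each pig and the mean and SD of 4 pigs in black beside the points. The lines of TRIM55, NEDD4L and RNF207 run nearly parallel, those of KLHL38 and FBXO32 are flattest in pig 4, and MDM2 was higher in infarcted tissue in pigs 1 to 3 (7.78 to 7.96) but not in pig 4 (5.62).

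Ligases of the HECT and U-box classes differed in direction. NEDD4L, a HECT ligase that removes sodium channels from the cell surface, had remote signals of 5.92, 6.30, 4.56 and 4.73 and infarcted signals of 3.13, 3.99, 2.71 and 2.49. Pigs 1 and 2 were higher than pigs 3 and 4 in both regions, and the difference of −2.30 (standard error 0.44) varied by little between pigs (SD 0.39). STUB1, the ligase CHIP that takes clients from chaperones, was lower by 1.33 (standard error 0.26) on average. LOC100521958, described as SMURF1-like after a HECT ligase that degrades SMAD proteins, was higher. Its remote signals of 4.46, 4.38, 4.32 and 4.25 were nearly equal, and its infarcted signals were 6.38, 5.67, 5.57 and 5.21. The mean difference was 1.36 (standard error 0.26), without overlap.

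MDM2, the ligase of p53, had remote signals of 6.14, 6.26, 6.11 and 5.91 and infarcted signals of 7.78, 7.96, 7.78 and 5.62. The gene was higher by 1.64 to 1.70 in pigs 1 to 3 and lower by 0.29 in pig 4, so the mean of 1.18 (standard error 0.45) lies between the pigs. PELI1, a ligase of Toll-like receptor signalling, had remote signals of 5.87, 5.66, 5.95 and 4.94 and infarcted signals of 7.45, 7.43, 7.01 and 5.63. It was higher in each pig, by 1.28 on average (standard error 0.40), while the infarcted sample of pig 4 lay just under the remote signals of the other pigs.

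Genes around the ligases differed in both directions. UBASH3B, a phosphatase with a ubiquitin-binding domain that dampens signalling in leukocytes and platelets, was the gene with the highest positive difference of the 38. The remote signals of UBASH3B were 3.64, 3.18, 3.34 and 4.01 and its infarcted signals 5.31, 5.01, 5.57 and 4.62. The regions did not overlap, and the difference of 1.59 (standard error 0.27) corresponds to 3.0-fold. UBTD2, a protein with a ubiquitin-like domain, had remote signals of 5.03, 5.16, 4.81 and 3.79 and infarcted signals of 6.37, 6.28, 6.43 and 5.94. Here pig 4 had the largest difference (2.15) and pig 2 the smallest (1.12), with a mean of 1.56 (standard error 0.30). UBA7, the activating enzyme of the interferon-induced modifier ISG15, was higher by 0.86 (standard error 0.27), also most of all in pig 4 (1.43).

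UBD encodes FAT10, a ubiquitin-like modifier induced by interferon gamma. Both of its clusters were lower in infarcted tissue in every pig, by 1.46 (standard error 0.61) for the brighter one and 1.47 (0.24) for the other. The brighter cluster varied more, with a remote signal of 5.50 in pig 4 against 7.35 to 7.45 in the other pigs, and its regions overlapped. The other cluster held between 6.11 and 6.46 in remote and between 4.40 and 5.33 in infarcted tissue. The dimmer cluster passed the adjusted p with region as the only factor, and both clusters passed with the replicate block and without pig 4.

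UBE2D4 was the only E2 enzyme found. In remote tissue its signals were 5.04, 5.09, 5.17 and 4.58 and in infarcted tissue 3.63, 4.05, 1.88 and 4.14. The difference reached −3.29 in pig 3 and stayed at −0.44 in pig 4, so the mean of −1.55 (standard error 0.44) carries an SD over pigs of 1.23. The infarcted signal of pig 3 (1.88) lay under the median of every array (2.96 to 3.22), so the size of its difference is not exact. Without that array the mean difference of UBE2D4 was −1.03.

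Of the deubiquitinases, USP28, known to stabilise MYC, had remote signals of 7.23, 7.52, 6.70 and 6.24 and infarcted signals of 5.18, 5.79, 4.17 and 5.29. It was lower in each pig without overlap, by 1.82 on average (standard error 0.37). USP2, a deubiquitinase that follows the circadian clock, was lower by 1.76 (standard error 0.39). USP8, which acts on endosomes, was higher by 0.80 (standard error 0.30), the smallest average difference of the 38 genes. The infarcted signals of USP8 were 7.20 to 7.39 in pigs 1 to 3 and 6.19 in pig 4.

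The 4 proteasome genes were lower by modest amounts, and none of them encodes a subunit of the core particle. PSMC5, an ATPase of the regulatory particle, had remote signals of 6.78, 6.71, 6.88 and 6.07 and infarcted signals of 5.74, 5.51, 5.99 and 5.59. The regions were close but did not overlap, and the difference was −0.90 (standard error 0.24). PSMF1, the inhibitor PI31, had remote signals of 6.68, 6.69, 6.06 and 5.51 and infarcted signals of 5.41, 5.11, 4.82 and 4.53. The difference was alike in all pigs (−0.98 to −1.58, mean −1.27, standard error 0.31).

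PSMG3 and PSMG4 are chaperones that help to assemble the core particle. PSMG3 had remote signals of 5.08, 5.04, 5.12 and 4.3 and infarcted signals of 3.51, 4.0, 3.68 and 3.74. The remote sample of pig 4 was the one apart, and the mean difference was −1.15 (standard error 0.24). PSMG4 had remote signals of 6.80, 6.58, 6.33 and 4.72 and infarcted signals of 5.46, 5.31, 4.93 and 4.85. In pig 4 the infarcted sample was higher by 0.13, and the mean of −0.97 (standard error 0.41) rests on pigs 1 to 3 (−1.27 to −1.40). PSMF1 and PSMG3 passed the adjusted p with region as the only factor, PSMC5 also with the replicate block, and all 4 without pig 4.

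The 3 genes with the smallest differences were USP8 (0.80), UBA7 (0.86) and PSMC5 (−0.90). With KLHDC3, PSMG4 and TRIM26 they lay under 1 on the log2 scale, that is under 2-fold by the means used here, although the deposited list holds them. The authors' averages and fold changes were not used, and the reason was not tested.

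The rest of the pathway could be followed only where a cluster carried a name. Of 371 genes on lists of ubiquitin, E1, E2, cullin, ligase, deubiquitinase and proteasome genes and related factors, 32 had a named cluster, 28 of them among the genes above. Outside these genes, CUL2, a cullin, had a log2 difference of −1.01 (standard error 0.34), NEDD8, a ubiquitin-like modifier that activates cullins, one of −0.84 (0.30) and the deubiquitinase JOSD2 one of −0.87 (0.33). None of these 3 passed the adjusted p in limma. CUL2 and JOSD2 passed with the replicate block, and all 3 passed as lower without pig 4. Over the whole list 19 of the 32 named genes passed as lower and 0 as higher (background 3.42% and 2.47%), and with the replicate block 25 and 4 (background 5.66% and 4.57%). These names come from the same filtered list, so nothing is read from the counts. Of 51 proteasome genes on the lists 4 had a name. The remaining 339 genes of the pathway, the core proteasome subunits, the immunoproteasome subunits and the ubiquitin genes among them, were not analysed here.

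Pig 4 had the smallest difference for many of these genes, as it did for most of the listed clusters. Its arrays had a narrower spread of log2 signals (SD 1.49 in remote and 1.46 in infarcted tissue) than the other 6 (1.68 to 1.84). Over the 27 lower genes the median difference was −1.88, −1.76 and −1.98 in pigs 1 to 3 and −0.64 in pig 4, and 22 of the 27 had their smallest difference in pig 4. Over all 1321 listed clusters with a lower mean this was so for 72.3%. The remote sample of pig 4 was the lowest of the remote samples for 23 of the 27 genes (72.5% of the listed lower clusters), and its infarcted sample the highest of the infarcted ones for 8 (32.0%). For most of these genes the narrower gap of pig 4 thus went with a low remote signal. Without pig 4 the median of the lower genes was −2.10 and that of the higher genes 1.32.

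The lower genes were not equally uneven. TRIM55, NEDD4L, RNF207, FBXW8, PSMF1 and PSMC5 had an SD of the difference over pigs under 0.4, while ASB11, the ASB9-like cluster, UBE2D4, KBTBD12 and ASB2 had SDs from 1.20 to 1.31. TRIM55 differed by −2.74 in pig 4 and by −2.78 on average in pigs 1 to 3, and ASB2 by −0.63 and −3.03. In 24 of the 27 lower and 10 of the 11 higher genes all 4 pigs had the same sign, and the exceptions were ASB11, the ASB9-like cluster, PSMG4 and MDM2. The share of all clusters with the same sign in all 4 pigs was not computed. The regions did not overlap for 21 lower and 5 higher genes, where 5.06% and 5.19% of all clusters show this. The list had been filtered on the same contrast, which favours equal signs and regions apart, so nothing is read from these counts.

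**Figure D3:**
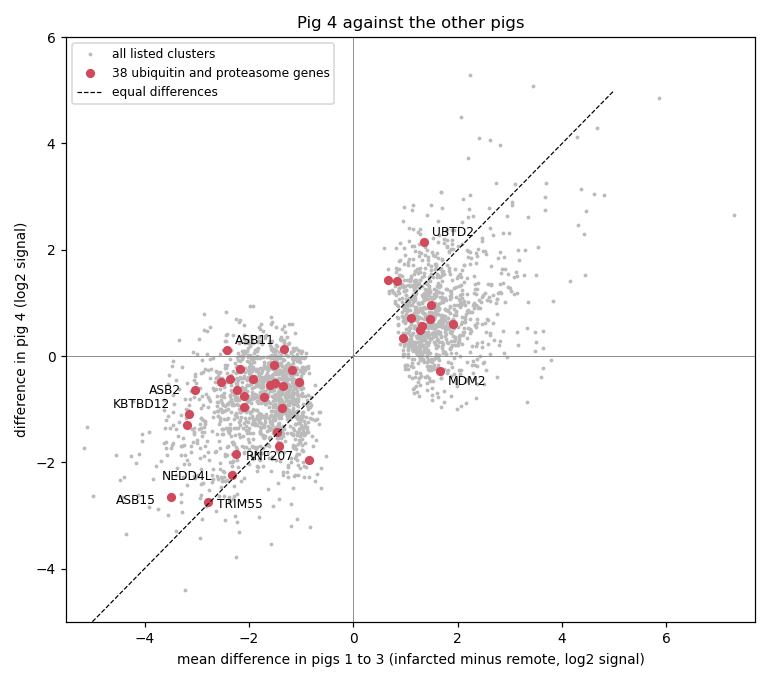
Difference between infarcted and remote tissue in pig 4 (y axis, log2 signal) against the mean difference of pigs 1 to 3 (x axis, log2 signal), for the 38 genes in red and all 2331 listed clusters in grey, with a dashed line where the values are equal. TRIM55, NEDD4L and RNF207 lie near the line, and ASB2, ASB11, KBTBD12 and MDM2 lie far from it.

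Markers of heart muscle cells were lower as well. Of 12 cardiomyocyte markers 8 had a named cluster, MYH7, ACTC1 and MYL2 among them, and all 8 had a lower mean in infarcted tissue, by 1.53 to 2.88 with a median of −2.0. Of these 8 markers 5 passed the adjusted p (background 3.42% of all clusters for lower). Their names come from the same filtered list, so nothing is read from this count. Their mean signal ran from 9.51 to 10.2 in the remote samples and from 6.67 to 8.62 in the infarcted ones. By pig their median differences were −2.02, −1.61, −3.23 and −0.85, smallest in pig 4 as for the ubiquitin genes. Of the 27 lower genes 8 differed by more than the marker median, namely ASB15, TRIM55, ASB4, KBTBD12, ASB2, NEDD4L, RNF207 and FBXO40. In bulk tissue, fewer cells of a type and less RNA per cell cannot be told apart, and the part of the heart muscle cells in the lower signals was not tested.

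Fibroblast and macrophage markers were higher in infarcted tissue. The 6 named of 10 fibroblast markers, of which 5 passed, had a median difference of 2.52, with mean signals of 4.56 to 6.46 in remote and 7.43 to 8.95 in infarcted samples. The 7 named of 10 macrophage markers, of which 6 passed, had a median difference of 2.30, with mean signals of 3.32 to 3.68 in remote and 4.90 to 6.88 in infarcted samples. The 3 named smooth muscle markers were divided, with TAGLN (1.69, standard error 0.30) and ACTG2 (2.84, 0.66) higher and SMTN lower (−1.04, 0.24), and all 3 passed. Of the neutrophil markers S100A8 passed as higher (2.33, standard error 0.48) and S100A12 did not pass (1.84, 0.57), and the lymphocyte marker NKG7 passed as higher (1.48, 0.25). The part of these cells in the higher signals of UBASH3B, PELI1 and the other 9 higher genes was not tested, and 0 endothelial markers had a name. As with the genes above, only markers that had changed enough to be listed carried a name. The background was 2.47% of all clusters for higher and 3.42% for lower, and nothing is read from the counts of markers that passed.

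**Figure D4:**
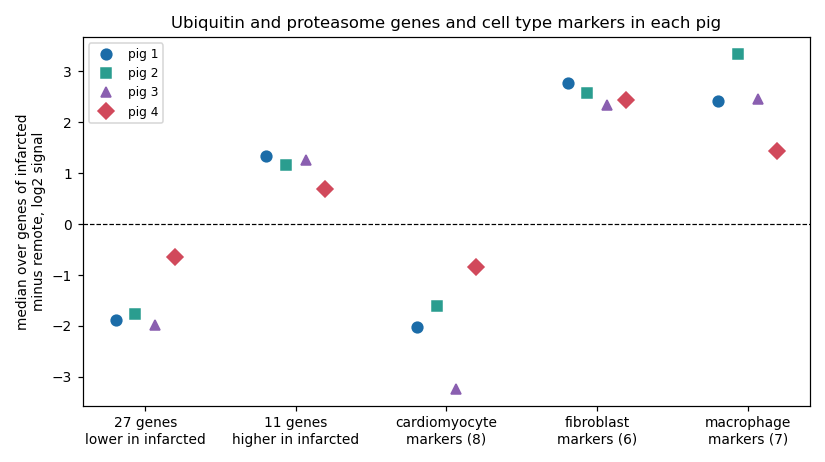
Median over genes of the difference between infarcted and remote tissue (y axis, log2 signal) in each of 4 pigs, for the 27 lower and 11 higher ubiquitin and proteasome genes and for 3 lists of cell type markers (x axis, number of named genes in brackets). The lower genes and the cardiomyocyte markers lie nearest to 0 in pig 4 (−0.64 and −0.85), while the fibroblast markers lie between 2.34 and 2.76 in all pigs.

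Leaving out single arrays changed which genes passed. Among the lower genes 19 passed with all arrays (3.42% of all clusters). With the remote array of pig 1, its infarcted array or the remote array of pig 2 dropped 8 passed each time (1.63%, 1.71% and 1.66% of all clusters). The number was 10 without the remote array of pig 3 (1.98%), 12 without its infarcted array (1.79%) and 24 without the remote array of pig 4 (5.92%). Among the higher genes 3 passed with all arrays (2.47%) and 8 without the infarcted array of pig 4 (5.43%). The counts over all clusters thus moved in the same direction as those of the 38 genes in each of the settings given so far. For lower genes this was not so without the infarcted array of pig 4. There 19 lower genes still passed, while the lower clusters of the whole array went from 872 to 983. The 10 genes that passed with all arrays and with any single array left out were ASB15, ASB4, TRIM55, KBTBD12, NEDD4L, RNF207, FBXO40, FBXW8, UBASH3B and the SMURF1-like LOC100521958. The share of all clusters that passed in every one of these fits was not computed, so nothing is read from this count.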

How the data were processed

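RNA from infarcted and remote myocardium was labelled with the GeneChip WT Pico kit and hybridised to GeneChip Porcine Gene 1.1 ST arrays. Normalization was done by the authors with Transcriptome Analysis Console, and the deposited log2 signals hold 1 value per transcript cluster and array. How probes were summarised is not stated in the sources used, and the number of arrays limits the precision. From the authors' deposited comparison only symbols and descriptions were used. Its averages, fold changes and p-values, and the enrichment sheets, were not used.

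Region was the only factor of the linear model (limma 3.58.1, R 4.3.3, empirical Bayes), with Benjamini-Hochberg adjustment over 25470 clusters. The model was tested on simulated data. Plots were drawn in Python (3.11.15) by matplotlib (3.10.9).

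Placeholder loci were updated through RefSeq gene records, which named ASB2. Of the 38 genes 8 share their annotation with another locus. All 38 are named, and values of each sample are given for the 8 most lower, the 6 most higher, the leading gene of each family and the proteasome genes, and, chosen after its values were seen, for FBXO32. Samples were grouped by labelled region and paired by labelled animal. Deviations of the 2 samples of a pig from the group means correlated with r = 0.177, 0.428, 0.113 and 0.441, above the highest r with another pig. Other settings tried were quantile normalization or median centring, a replicate block for the pig, removal of the dimmest clusters, other moderation of the spread, leaving out pig 4 or each array, the mean over clusters, and clusters with 1 symbol. The genes, lists and alternatives were chosen with earlier results of these data known. A planned motif search was not run for want of sequences. A gene of the pathway lists is not reported here.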

Additional observations from a re-analysis of the deposited data

Results flagged for a closer look

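Of 76 groups of 4 samples (38 genes in each region), 6 held a sample that stood apart from the other 3 by more than Dixon's critical value, where chance gives about 1 in 20, or 3.8. In remote tissue pig 4 was low for UBD (5.50 against 7.35 to 7.45), STUB1 (4.48 against 5.36 to 5.54) and PSMG3 (4.3 against 5.04 to 5.12). In infarcted tissue pig 4 was low for MDM2 (5.62 against 7.78 to 7.96) and USP8 (6.19 against 7.20 to 7.39). The remaining one was the remote sample of pig 2 for FBXO32, which was high (7.84 against 7.24 to 7.31).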

How the results depend on the processing

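In the 11 settings that change the signals or the samples, all 418 differences of the 38 genes kept their direction, and 417 moved by less than the SD over pigs (TRIM55 without infarcted replicate 3 was −2.46). Counts of genes that passed depended more on the setting. With the pig as a replicate block 10 genes were higher, as were 4 of the wider pathway list, 1163 of all clusters were higher and 1441 lower. With quantile normalization 5 genes and 2 of the pathway list were higher, beside 774 of all clusters (630 in the main fit). Without pig 4 the genes numbered 9 higher, those of the pathway list 4, and all clusters 1755 higher and 1906 lower. Leaving out each array in turn gave 2 to 8 higher and 8 to 24 lower genes, 0 to 4 higher and 8 to 24 lower genes of the pathway list, 259 (without infarcted replicate 1) to 1383 (without infarcted replicate 4) higher and 415 (without remote replicate 1) to 1508 (without remote replicate 4) lower clusters, and medians of 0.94 to 1.39 for the higher and −1.93 to −1.51 for the lower genes. The cause was not tested. In the remaining settings the counts stayed within 1.5 times. Signals under the array medians are not shown to be above background.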
